A study of Rattus norvegicus with 8 samples.

Results

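The genes described here are the Wnt ligands, their receptors and co-receptors, the R-spondins, the secreted Wnt antagonists and the central proteins beta-catenin and Axin2, as expressed in rat sciatic nerve. They were chosen by gene symbol alone: every numbered Wnt, Fzd, Sfrp, Dkk and Rspo gene, together with Frzb, Wif1, Notum, Axin2, Lrp5, Lrp6, Ctnnb1, Ror1, Ror2 and Ryk, provided that at least 1 read was found in at least 1 library. This gave 47 genes of the 32545 in the table, comprising 17 Wnt ligands, 9 Frizzled receptors, 5 co-receptors or alternative receptors, 4 R-spondins, 10 secreted antagonists and 2 intracellular members. Another 4 symbols that met the rule (Dkk1, Fzd8, Wnt3a and Wnt8a) were listed without a read in any library, and Axin1 was not analysed here.

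The 3 groups of nerve came from outbred female Sprague Dawley rats, 3 to 6 months old. In 3 PEG-fused animals (PEG) and 3 negative control animals (NC), a gap in the sciatic nerve was bridged by a peripheral nerve allograft (PNA) from an unmatched donor, and the PNA was collected 14 days postoperatively (PO) without immunosuppression. Both kinds of PNA were washed with hypotonic saline and methylene blue and were joined to the host by microsutures, and only the PEG group then received polyethylene glycol (PEG), a polymer that fuses the cut ends of axons. The third group, Unop, was 2 unoperated sciatic nerves. A PNA holds donor tissue together with whatever host cells have entered it, so that these bulk libraries mix both. Thin layers of muscle that clung to NC PNAs could not be trimmed away completely, as the study notes.

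Wnt proteins are lipid-modified secreted signals that bind Frizzled receptors. With the co-receptors Lrp5 and Lrp6 they protect beta-catenin (the product of Ctnnb1) from a destruction complex built on Axin, and beta-catenin then drives transcription with TCF/LEF factors. Other Wnts act without beta-catenin through Ror1, Ror2, Ryk and the planar cell polarity proteins, which steer cell movement and axon growth. R-spondins raise the amount of receptor on the cell surface, whereas Sfrp, Dkk, Wif1 and Notum proteins hold signalling back. In peripheral nerve these genes are known from Schwann cell myelination, from the fibroblasts and perineurial cells of the nerve sheaths, and from the guidance of growing axons.

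Levels are normalized read counts, that is, reads on a gene divided by a size factor of its library, and the libraries held from 32472925 to 39959620 reads on genes each. Overlaps were read from a RefSeq annotation, which is not the one used for counting. In it Wnt10b and Wnt1 overlap Tuba1c, and Wnt5b, Sfrp4 and Wnt8b overlap Fbxl14, Nme8 and Sec31b. Fzd5 overlaps another protein-coding gene, and Wnt11, Wnt5b, Wnt7b and Wif1 overlap long noncoding RNA genes. Fzd3 and Lrp5 overlap pseudogenes and Ror1 a small RNA gene. Reads of overlapping genes cannot be told apart where strand was not used in counting. Because gene lengths were not used, levels are compared between libraries and not between genes. Differences are log2 fold changes ± their standard error from limma on log2(normalized read count + 1), which understates changes of low genes. A gene was called when its Benjamini-Hochberg adjusted p, over all 16478 genes that reached 10 normalized counts in at least 2 libraries, was under 0.05. Of the 47 genes, 41 were tested, and 3 of them (Rspo4, Wnt7b and Wnt9b) passed only through their level in Unop nerve. Animals are the replicates, with 3, 3 and 2 per group.

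Markers of the cell types that such tissue can hold differed widely between the groups, and in a bulk library fewer cells of a type cannot be told apart from less RNA per cell. The summed count of 7 Schwann cell markers (among them Sox10 and the myelin gene Mbp) was 1069820 and 1259138 in Unop nerve, 49115 to 50873 in PEG-fused PNAs and 19636 to 43114 in NC PNAs. Of these 7, Erbb3 was not called between PEG and Unop. The sum of perineurial markers was likewise highest in Unop nerve (90076 and 100925, against 15212 to 20219 in PEG and 9977 to 13703 in NC), with Lypd2 at 0 in every library. In that list 5 of 6 tested markers were lower in both PNAs than in Unop, while Msln was higher in both (log2 fold changes 4.11 and 3.18). Adipocyte markers summed to 54442 and 97225 in Unop nerve and to between 3810 and 9699 in all 6 PNAs. T cell markers summed to 20210 to 37933 in NC PNAs, 1751 to 4961 in PEG-fused PNAs and 206 to 394 in Unop nerve, and all 7 that were tested differed in each of the 3 comparisons. The 8 fibroblast markers summed to 610044 to 893040 in PEG, 347186 to 527748 in NC and 377742 to 509636 in Unop, and 3 of them were higher in PEG than in NC. Against Unop, 5 were higher in PEG and 1 in NC, whereas Dcn was lower in PEG (-1.23) and in NC (-1.61), and Pi16 was lower in NC (-0.79). Skeletal muscle fibre markers set 2 libraries apart, since they summed to 779954 in NC 1 and 282924 in NC 3 but to 12945 in NC 2, which lies inside the range of the PEG-fused PNAs (3111 to 18212). For this reason every PEG against NC result was also computed without NC 1 and NC 3. Pericyte and smooth muscle markers (17167 to 20879 in PEG, 10309 to 13908 in NC, 41262 and 48956 in Unop) and endothelial markers (11880 to 15423, 11494 to 13976, 17494 and 19387) had their highest sums in Unop nerve, with Cldn5 at 0 throughout. Members of both lists differed from their sums: Rgs5 and Notch3 were higher in PEG than in Unop (0.83 and 0.61), Kdr was not called against Unop and was lower in PEG than in NC (-0.59), and Tie1 was not called in any comparison. The sum of macrophage markers was highest in NC (142279 to 164838, against 91630 to 111470 in PEG and 18078 to 29109 in Unop), and 6 of the 8 were lower in PEG than in NC, while Cd68 (0.36) and Mrc1 (-0.087) were not called. The sum of satellite cell and myoblast markers was also highest in NC (7805 to 38468, against 3645 to 4780 and 2957 to 4574), with 4 of 7 lower in PEG than in NC. Higher in PEG than in NC were 4 of 7 Schwann cell and 3 of 8 fibroblast markers. So were 2 of 6 tested perineurial and 4 of 6 pericyte and smooth muscle markers, and most of the called Wnt genes. Beside these marker counts, 15.0% of all tested genes were higher and 13.9% lower in PEG than in NC. Against Unop, 57.7% of all tested genes differed in PEG and 64.5% in NC. The part of the marker genes in the results that follow was not tested unless a value is given.

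**Figure D1:**
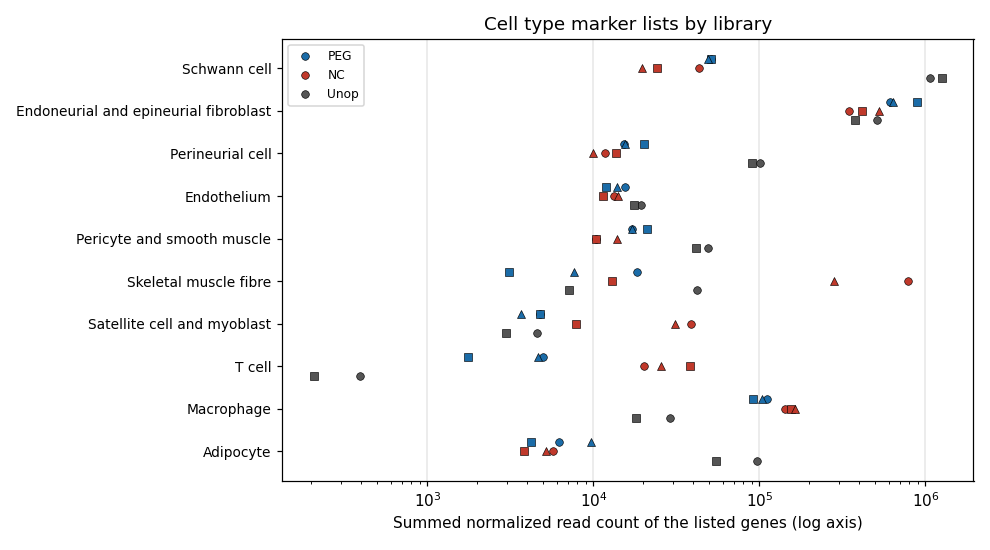
Summed normalized read count (log axis) of the genes on each of 10 cell type marker lists, 1 point per library, coloured by group, with circles, squares and triangles for libraries 1, 2 and 3. NC 1 and NC 3 stand to the right of all other libraries on the skeletal muscle lists, whereas the 2 Unop nerves stand to the right of all PNAs on the Schwann cell, perineurial, pericyte, endothelial and adipocyte lists.

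Between PEG-fused and NC PNAs, 17 of the 41 tested genes differed (41.5%), where 28.9% of all tested genes did. Of these, 15 were higher in PEG-fused PNAs (36.6% of the 41, against 15.0% of all genes) and 2 were lower (4.88%, against 13.9%). Without NC 1 the lower genes numbered 4, with Sfrp1 and Wnt9b added, and the higher genes 15. The median log2 fold change over the 41 genes was 0.43, beside 0.0017 over all tested genes. In all 17 the PEG and NC libraries did not overlap, which a call already makes likely. The share over all tested genes, called or not, was 48.9% and is therefore no measure for these 17. Of the 41 tested genes, 11 were called with a change of more than 1 on the log2 scale, as were 11.5% of all tested genes. Against Unop nerve, 25 of 41 differed in PEG-fused PNAs (61.0%, against 57.7% of all genes), with 9 higher and 16 lower and a median of -0.21. NC PNAs differed from Unop nerve at 28 of 41 (68.3%, against 64.5%), with 4 higher and 24 lower and a median of -0.81. Called changes of more than 1 numbered 17 in PEG and 21 in NC (32.3% and 38.6% of all genes). Higher calls made up 29.1% and lower calls 28.6% of all genes in PEG against Unop, and 32.2% and 32.3% in NC against Unop. Rspo4, Wnt7b and Wnt9b, which reached the test only through their Unop level, had to be lower in the PNAs and are among the 16 and the 24. The comparisons share libraries and are therefore not independent of each other.

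**Figure D2:**
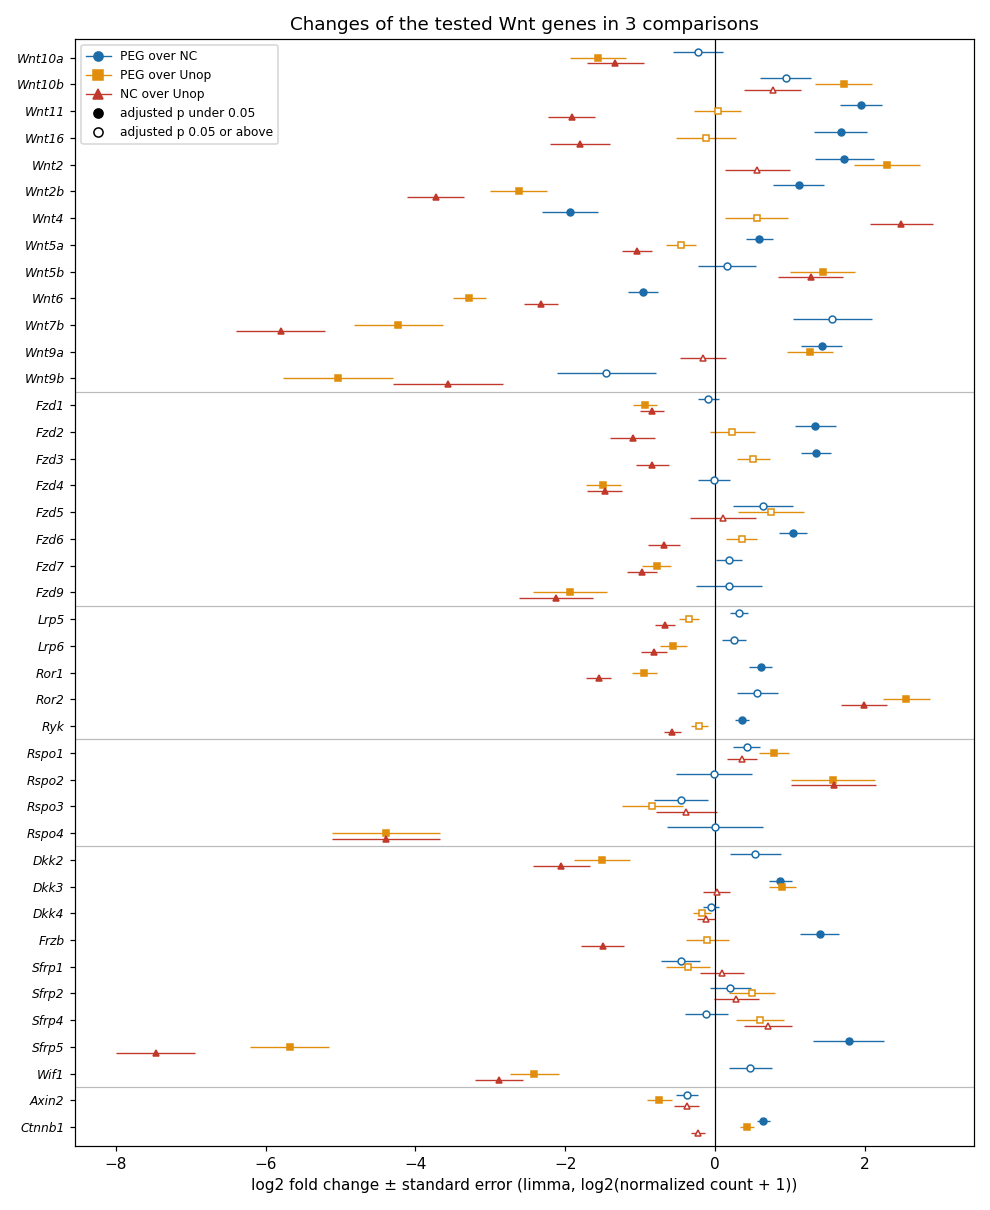
Log2 fold change ± standard error (limma) of the 41 tested Wnt genes in PEG over NC (circles), PEG over Unop (squares) and NC over Unop (triangles), ordered by role from ligands at the top to intracellular members at the bottom, with filled symbols where adjusted p is under 0.05. The filled circles lie to the right of 0 for 15 genes and to the left for Wnt4 and Wnt6, and the filled triangles lie to the left of 0 for 24 of 28 genes.

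Of the 13 tested Wnt ligands, 6 were more abundant in PEG-fused than in NC PNAs, namely Wnt11, Wnt2, Wnt16, Wnt9a, Wnt2b and Wnt5a (46.2%, against 15.0% of all tested genes). Another 2 were less abundant (15.4%, against 13.9% of all tested genes). Wnt11, which in most settings acts without beta-catenin, stood at 102, 91.6 and 149 normalized counts in PEG, at 31.3, 23.7 and 29.9 in NC and at 138 and 85.1 in Unop. Its PEG libraries overlapped with the Unop nerves, and the NC libraries lay below all others (3.88-fold higher in PEG than NC, log2 fold change 1.95 ± 0.28, adjusted p = 0.00216). NC PNAs were also below Unop nerve (-1.91 ± 0.31, adjusted p = 0.000793), whereas PEG against Unop was 0.041 ± 0.31, adjusted p = 0.919. Wnt16, a ligand best known from bone, showed the same order. It was counted at 75.1, 119.7 and 80.7 in PEG, 17.0, 28.0 and 42.4 in NC and 115 and 82.5 in Unop, a 3.21-fold difference between the PNAs (1.68 ± 0.36, adjusted p = 0.0102). NC was lower than Unop (-1.80 ± 0.40, adjusted p = 0.00417) and PEG overlapped with it (-0.12 ± 0.40, adjusted p = 0.821).

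Wnt2 and Wnt9a, in contrast, were higher in PEG-fused PNAs than in both other groups. Wnt2, which signals through beta-catenin in many tissues, reached 192, 192 and 208 in PEG but 72.4, 66.7 and 41.5 in NC and 67.6 and 22.5 in Unop. That is 3.33-fold over NC (1.73 ± 0.39, adjusted p = 0.013) and 4.93-fold over Unop (2.30 ± 0.44, adjusted p = 0.00218), while NC and Unop overlapped (0.57 ± 0.44, adjusted p = 0.28) and were called apart only without Unop 1 (1.34, adjusted p = 0.0138). The 2 Unop nerves lay apart in Wnt2, and the log2 fold change of PEG over Unop was 3.07 without Unop 1 and 1.53 without Unop 2, called both ways. Without NC 1 and NC 3 the Wnt2 difference from NC was 1.55, adjusted p = 0.0897. Wnt9a, a ligand of joint and cartilage development, was counted at 58.4, 71.1 and 64.7 in PEG, 28.6, 18.3 and 24.1 in NC and 32.2 and 21.3 in Unop. It was higher in PEG than in NC (1.43 ± 0.28, adjusted p = 0.00689) and than in Unop (1.27 ± 0.31, adjusted p = 0.00753), although the latter call was lost without Unop 2 (0.98, adjusted p = 0.0539). NC and Unop overlapped for Wnt9a (-0.16 ± 0.31, adjusted p = 0.663).

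For Wnt2b and Wnt5a the PEG-fused PNAs lay between NC PNAs and Unop nerve. Wnt2b was counted at 91.8, 119 and 106.002 in PEG, 61.7, 67.8 and 26.0 in NC and 701 and 602 in Unop. The distance from either PNA to Unop nerve (-2.62 ± 0.38, adjusted p = 0.000533 for PEG and -3.73 ± 0.38, adjusted p = 5.22e-05 for NC) was larger than that between the PNAs (1.12 ± 0.34, adjusted p = 0.0411). The last call was lost when any one of PEG 1, PEG 2, PEG 3, Unop 1 and Unop 2 was left out, with log2 fold changes of 1.03 to 1.21 and adjusted p of 0.0568 to 0.127, and without NC 1 and NC 3 it was 0.62, adjusted p = 0.113. Wnt5a, the ligand of the Ror receptors and a guide of axons and moving cells, was counted at 219.7, 259.9 and 217 in PEG, 179, 126 and 158 in NC and 352 and 283 in Unop. PEG libraries lay above all NC libraries (0.60 ± 0.18, adjusted p = 0.0384) and below both Unop nerves (-0.45 ± 0.20, adjusted p = 0.0866), and NC was lower than Unop (-1.04 ± 0.20, adjusted p = 0.00191). The smaller PEG to NC difference was not called without PEG 1, PEG 2, PEG 3, NC 2 or NC 3 (0.46 to 0.64, adjusted p 0.075 to 0.133).

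**Figure D3:**
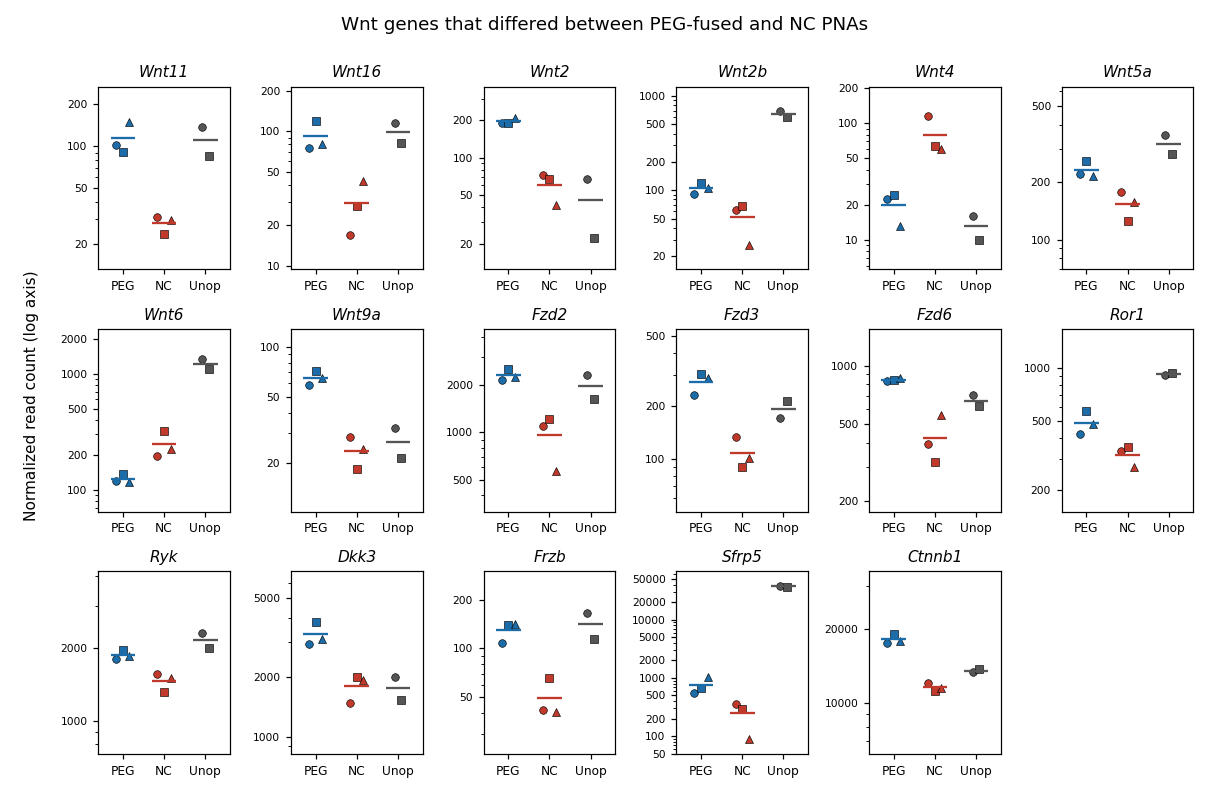
Normalized read count (log axis) in every library for the 17 Wnt genes called between PEG-fused and NC PNAs, with horizontal lines at group means and with circles, squares and triangles for libraries 1, 2 and 3. PEG and NC points do not overlap in any panel. Only Wnt4 and Wnt6 are lower in PEG, and Sfrp5, Wnt2b and Wnt6 have both Unop nerves far above all 6 PNAs.

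Wnt4 and Wnt6 were the ligands of lower abundance in PEG-fused than in NC PNAs. Wnt4, a regulator of kidney and gonad development, was counted at 22.2, 24.3 and 13.1 in PEG, 115, 63.5 and 59.8 in NC and 16.1 and 10.01 in Unop. NC PNAs thus stood above every other library, 3.80-fold over PEG (PEG over NC -1.93 ± 0.38, adjusted p = 0.0073) and 5.61-fold over Unop (2.49 ± 0.42, adjusted p = 0.000947), while PEG and Unop overlapped (0.56 ± 0.42, adjusted p = 0.281). The highest Wnt4 count was that of NC 1, which also held the most muscle reads. NC 2 held 63.5, with a muscle fibre sum inside the PEG range and a satellite cell and myoblast sum (7805) above every PEG library, and the part of muscle in the difference was not tested. Without NC 1 and NC 3 the difference was -1.67, adjusted p = 0.0642. Wnt6, an epithelial and neural crest ligand, was counted at 119.6, 136 and 117 in PEG, 196, 323 and 224 in NC and 1348 and 1092 in Unop. It fell stepwise from Unop to NC (-2.32 ± 0.22, adjusted p = 3.63e-05) and was lower still in PEG (-0.96 ± 0.20, adjusted p = 0.00952 against NC and -3.28 ± 0.22, adjusted p = 8.95e-06 against Unop), where it was 9.70-fold below the unoperated nerve. Wnt6 is the one gene of the 41 that was lower in both kinds of PNA than in Unop nerve and lower in PEG than in NC.

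Several ligands differed from unoperated nerve without a called difference between the PNAs. Wnt10a, Wnt7b and Wnt9b were lower in both PNAs than in Unop nerve. Wnt10a, a ligand of skin and tooth development, was counted at 12.05, 16.8 and 14.1 in PEG, 20.6, 21.5 and 10.6 in NC and 45.1 and 42.5 in Unop (-1.56 ± 0.38, adjusted p = 0.00741 for PEG and -1.33 ± 0.38, adjusted p = 0.0137 for NC). The NC call for Wnt10a was lost without Unop 1 (-1.29, adjusted p = 0.0666), without Unop 2 (-1.37, adjusted p = 0.0535) and without NC 1 and NC 3 (-0.99, adjusted p = 0.087). Wnt7b was counted mainly in Unop nerve, with 73.0 and 88.8 there against 4.63, 2.80 and 2.81 in PEG and 0, 2.15 and 0 in NC. From 139 reads in Unop and 2 in NC the ratio of Unop to NC was 123.9, with a 95% interval of 33.7 to 1033 that covers counting error only. The 11 reads in PEG exceeded those in NC 5.28-fold (1.15 to 49.0), a difference that was not called (adjusted p = 0.0579) except without NC 2 (2.12, adjusted p = 0.0114). Wnt9b, with 41.9 and 23.8 in Unop, had 0 reads in all 3 PEG-fused PNAs and 0, 3.23 and 3.86 in NC. With a floor of 3 reads for each library, Unop nerve was at least 11.7-fold higher than PEG-fused PNAs. Wnt9b was called between PEG and NC only without NC 1 (-2.18, adjusted p = 0.0151).

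In PEG-fused PNAs, Wnt5b and Wnt10b exceeded Unop nerve. Wnt5b, the close relative of Wnt5a, was counted at 117, 115 and 125 in PEG, 60.8, 179.7 and 109.005 in NC and 56.9 and 32.5 in Unop. It was called higher in PEG (1.44 ± 0.43, adjusted p = 0.0192) and in NC (1.28 ± 0.43, adjusted p = 0.0284), but both calls were lost without Unop 2 (1.05, adjusted p = 0.136 for PEG and 0.89, adjusted p = 0.187 for NC). The PEG call was also lost without PEG 3 (1.41, adjusted p = 0.0506) and the NC call without NC 2 (0.90, adjusted p = 0.0613) or NC 3 (1.26, adjusted p = 0.0635). Wnt10b, known for holding back the formation of fat cells, was counted at 127, 107.5 and 93.8 in PEG, 74.2, 38.7 and 60.8 in NC and 46.1 and 22.5 in Unop. All PEG libraries exceeded all others. The PEG to Unop difference was called (1.72 ± 0.38, adjusted p = 0.00473) and the PEG to NC difference was not (0.94 ± 0.34, adjusted p = 0.0695), although it was called without Unop 1 (adjusted p = 0.0435), without Unop 2 (0.0421), with only the 2 groups in the fit (0.0407) and with DESeq2 (0.0406). NC against Unop (0.77 ± 0.38, adjusted p = 0.104) became a call without NC 2 (1.03, adjusted p = 0.0395) or Unop 1 (1.28, adjusted p = 0.03).

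**Figure D4:**
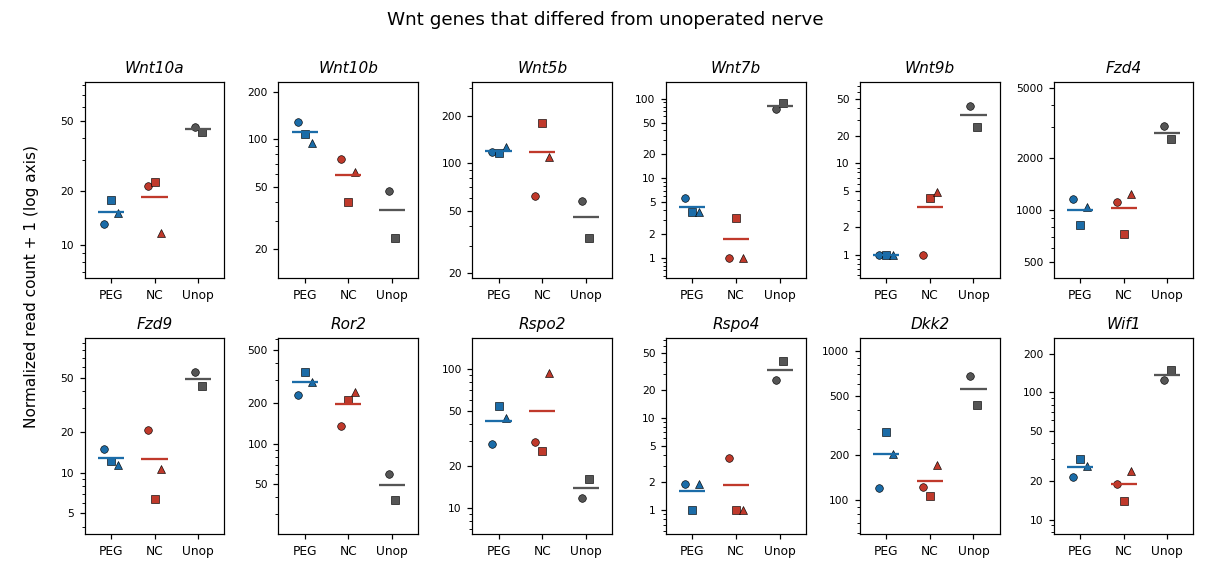
Normalized read count + 1 (log axis) in every library for 12 Wnt genes that differed from Unop nerve by more than 1 on the log2 scale in at least 1 kind of PNA and were not called between PEG and NC, with horizontal lines at group means and with circles, squares and triangles for libraries 1, 2 and 3. Wnt10b, Wnt5b, Ror2 and Rspo2 have Unop values below the PEG values, and the other 8 genes have both Unop nerves above all 6 PNAs.

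Among the Frizzled receptors, Fzd2, Fzd3 and Fzd6 were higher in PEG-fused than in NC PNAs (3 of 8 tested, none lower). Of all tested genes, 15.0% were higher and 13.9% lower, so that none lower among 8 says little. Fzd2, a receptor of Wnt5a among others, was counted at 2141, 2519 and 2247 in PEG, 1097, 1209 and 566 in NC and 2325 and 1639.7 in Unop. PEG was 2.52-fold over NC (1.34 ± 0.27, adjusted p = 0.00862) and overlapped with the Unop nerves (0.23 ± 0.30, adjusted p = 0.535), and NC was below Unop (-1.10 ± 0.30, adjusted p = 0.0123), a call lost without Unop 1 (-0.85, adjusted p = 0.0997). Fzd3, which is required for the growth of several axon tracts, was counted at 233, 306 and 287 in PEG, 133, 90.4 and 101 in NC and 171 and 214 in Unop. All PEG libraries were above all NC (1.35 ± 0.20, adjusted p = 0.00245) and above both Unop libraries (0.51 ± 0.22, adjusted p = 0.0797). Fzd6, a planar cell polarity receptor that orients hair follicles, was counted at 831, 841 and 860.2 in PEG, 393, 317 and 557 in NC and 703 and 618 in Unop. Its PEG libraries were again the highest (1.04 ± 0.19, adjusted p = 0.00542 against NC and 0.36 ± 0.21, adjusted p = 0.177 against Unop). NC was below Unop for Fzd3 (-0.83 ± 0.22, adjusted p = 0.0108) and Fzd6 (-0.68 ± 0.21, adjusted p = 0.0202), and these calls were lost without Unop 2 for Fzd3 (-0.67, adjusted p = 0.0744) and without Unop 1 for Fzd6 (-0.59, adjusted p = 0.11).

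Fzd1, Fzd4, Fzd7 and Fzd9 formed the other pattern, being lower in both PNAs than in Unop nerve with overlapping PEG and NC libraries. Fzd4, the receptor of Norrin in blood vessels, was counted at 1147, 814 and 1033 in PEG, 1108, 724 and 1234 in NC and 3018 and 2540.2 in Unop, with log2 fold changes of -1.49 ± 0.23, adjusted p = 0.00083 for PEG and -1.47 ± 0.23, adjusted p = 0.000685 for NC. Fzd1 and Fzd7, closely related receptors of the beta-catenin branch, ranged from 1096 to 1143 and 194 to 208 in PEG, from 1083 to 1383 and 149 to 204 in NC, and stood at 2529.6 and 1804 and at 400.3 and 294 in Unop. Fzd1 differed from Unop by -0.93 in PEG and -0.84 in NC on the log2 scale (adjusted p = 0.00125 and 0.00176), and Fzd7 by -0.78 and -0.97 (adjusted p = 0.00885 and 0.00247). Fzd9 was a low gene, at 10.3 to 13.9 in PEG, 5.38 to 19.7 in NC and 53.7 and 42.5 in Unop (-1.94 ± 0.49, adjusted p = 0.00943 for PEG and -2.12 ± 0.49, adjusted p = 0.00526 for NC). Without Unop 1, PEG against Unop was not called for Fzd7 (-0.56, adjusted p = 0.0699) or Fzd9 (-1.77, adjusted p = 0.0645). Fzd5, at 17.2 to 50.5 over the 8 libraries, was called in none of the 3 comparisons, though PEG against Unop was called without PEG 1 (1.17, adjusted p = 0.0279).

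The receptor tyrosine kinases Ror1 and Ror2, both receptors of Wnt5a, went opposite ways from unoperated nerve. Ror1 was counted at 419, 567 and 476 in PEG, 334, 351 and 270.1 in NC and 919.7 and 938 in Unop. It was lower in PEG (-0.94 ± 0.17, adjusted p = 0.00147) and lower still in NC (-1.55 ± 0.17, adjusted p = 6.84e-05) than in Unop, and PEG exceeded NC (0.61 ± 0.15, adjusted p = 0.0177). Ror2, in contrast, was counted at 228, 341 and 289 in PEG, 136, 209.8 and 240.2 in NC and 59.0 and 37.5 in Unop, so that all PNAs were above both Unop nerves (2.56 ± 0.31, adjusted p = 0.000191 for PEG and 1.99 ± 0.31, adjusted p = 0.000603 for NC). That is 5.89-fold in PEG and 3.97-fold in NC, and the PNAs overlapped with each other (0.57 ± 0.28, adjusted p = 0.159). Ryk, an atypical Wnt receptor in axon guidance, was counted at 1809, 1968 and 1853 in PEG, 1563, 1315 and 1509.7 in NC and 2326 and 2009 in Unop. PEG exceeded NC by the smallest called change of the 17 genes (0.36 ± 0.10, adjusted p = 0.0261), and NC was below Unop (-0.57 ± 0.11, adjusted p = 0.00197). The PEG to NC calls of Ror1 and Ryk were lost in several fits with 1 library fewer. Fits without 1 PEG or NC library also called fewer of all tested genes in PEG against NC (2749 to 4324, against 4763 with all 8 libraries). Ror1 was not called without PEG 2 (0.50, adjusted p = 0.067), PEG 3 (0.62, adjusted p = 0.052) or NC 3 (0.50, adjusted p = 0.052), nor without NC 1 and NC 3 (0.46, adjusted p = 0.137). Ryk was not called without PEG 1, PEG 2, PEG 3, NC 2 or NC 3 (0.29 to 0.39, adjusted p 0.0504 to 0.0966).

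Lrp5 and Lrp6, the co-receptors of the beta-catenin branch, were not called between the PNAs. Lrp5 was counted at 593, 554 and 719.5 in PEG, 502, 462 and 514 in NC and 809 and 757 in Unop, and Lrp6 at 1022, 1163 and 1246 in PEG, 949.9, 787 and 1155 in NC and 1486 and 1885 in Unop. The PEG libraries all exceeded the NC libraries for Lrp5, without a call (0.33 ± 0.12, adjusted p = 0.0733), and overlapped with them for Lrp6 (0.26 ± 0.16, adjusted p = 0.254). NC was lower than Unop for both (-0.67 ± 0.13, adjusted p = 0.0025 and -0.81 ± 0.18, adjusted p = 0.00386). PEG was called lower for Lrp6 (-0.55 ± 0.18, adjusted p = 0.0263) but not for Lrp5 (-0.34 ± 0.13, adjusted p = 0.0588). The Lrp6 call was lost without PEG 1 (-0.48, adjusted p = 0.0808), PEG 2 (-0.57, adjusted p = 0.0539) or Unop 2 (-0.38, adjusted p = 0.179), and Lrp5 was called without PEG 3 (-0.45, adjusted p = 0.0229).

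None of the 4 R-spondins was called between PEG-fused and NC PNAs, with a median log2 fold change of -0.0018. Since 28.9% of all tested genes were called, a list of 4 is too small to be told apart from that share. Neither limma, edgeR nor DESeq2 called any, and in each of these tools 1 of the 4, Rspo1, had an unadjusted p under 0.05. Rspo1 was counted at 602, 509.5 and 519 in PEG, 324, 482 and 417 in NC and 365 and 270.2 in Unop. Its PEG libraries were above all others (0.43 ± 0.18, adjusted p = 0.11 against NC and 0.79 ± 0.20, adjusted p = 0.00976 against Unop), and the Unop call was lost without Unop 2 (0.57, adjusted p = 0.0781). NC against Unop was called for Rspo1 only without NC 1 (0.51, adjusted p = 0.0418). Rspo2, counted at 27.8, 53.3 and 43.2 in PEG, 28.6, 24.7 and 91.6 in NC and 10.7 and 15.0 in Unop, was called higher than Unop in PEG (1.58 ± 0.57, adjusted p = 0.0404) and NC (1.59 ± 0.57, adjusted p = 0.0358). Both calls lay near the threshold and were lost in several fits with 1 library fewer. Without PEG 3, which takes no part in NC against Unop, the NC change stayed at 1.59. The PEG call was lost without PEG 2, PEG 3, Unop 1 or Unop 2 (1.36 to 1.81, adjusted p 0.0845 to 0.176), and the NC call without PEG 3, NC 3, Unop 1 or Unop 2 (1.01 to 1.82, adjusted p 0.053 to 0.159). Rspo3 ranged from 23.5 to 76.2 over the 8 libraries and was not called. Rspo4 was likewise counted mainly in Unop nerve, with 24.7 and 40.0 there, 0.93, 0 and 0.94 in PEG and 2.68, 0 and 0 in NC. Its 55 reads in Unop nerve stood against 2 in PEG (ratio 51.1, 13.5 to 432) and 3 in NC (32.7, 10.6 to 163).

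Of the secreted antagonists, Sfrp5, Frzb and Dkk3 were higher in PEG-fused than in NC PNAs (3 of 9 tested), and none was lower. The shares over all tested genes were 15.0% higher and 13.9% lower, so that none lower among 9 says little. Sfrp5, like the other Sfrp proteins, binds Wnts through a domain shared with Frizzled receptors. Sfrp5 was counted at 558, 670.3 and 1051 in PEG and 359, 289 and 89.7 in NC, whereas the Unop nerves held 38064 and 36902. PEG-fused PNAs were thus 51.1-fold and NC PNAs 177-fold below Unop nerve (log2 fold changes -5.68 ± 0.53, adjusted p = 4.55e-05 and -7.47 ± 0.53, adjusted p = 7.21e-06). PEG remained 3.46-fold above NC (1.79 ± 0.47, adjusted p = 0.0245), a call that was lost without PEG 2 (1.86, adjusted p = 0.0652) or PEG 3 (1.53, adjusted p = 0.0827) and that fell to 1.18 (adjusted p = 0.0172) without NC 3, the library with the lowest count. Schwann cell, perineurial, adipocyte, pericyte and endothelial marker sums were also highest in Unop nerve, and their part in the Sfrp5 difference was not tested.

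Frzb, a secreted Frizzled-like protein of cartilage, was counted at 108.4, 139 and 142 in PEG, 42.0, 65.6 and 40.5 in NC and 166 and 115 in Unop. PEG and Unop overlapped (-0.10 ± 0.29, adjusted p = 0.779) and both exceeded NC (1.40 ± 0.26, adjusted p = 0.00581 for PEG over NC and -1.50 ± 0.29, adjusted p = 0.00194 for NC over Unop). Without NC 1 and NC 3 the PEG to NC difference was 0.96, adjusted p = 0.0717. Dkk3, a divergent member of the Dickkopf family that is not a typical blocker of Lrp5 and Lrp6, was counted at 2957, 3818 and 3115 in PEG, 1474, 1991 and 1934 in NC and 1996 and 1539.7 in Unop. All PEG libraries exceeded the other 5 (0.88 ± 0.16, adjusted p = 0.00539 against NC and 0.90 ± 0.18, adjusted p = 0.00261 against Unop), and NC and Unop overlapped (0.025 ± 0.18, adjusted p = 0.91).

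Wif1 and Dkk2 were lower in both PNAs than in unoperated nerve. Wif1, which binds Wnts directly, was counted at 20.4, 29.0 and 25.3 in PEG, 17.9, 12.9 and 23.2 in NC and 123 and 148 in Unop, 5.30-fold lower in PEG (-2.41 ± 0.32, adjusted p = 0.000334) and 7.35-fold lower in NC (-2.88 ± 0.32, adjusted p = 8.86e-05). Dkk2, a ligand of Lrp5 and Lrp6, was counted at 119.6, 282 and 202 in PEG, 122, 105 and 171 in NC and 678 and 432 in Unop (-1.51 ± 0.38, adjusted p = 0.0087 for PEG and -2.05 ± 0.38, adjusted p = 0.00152 for NC). PEG against Unop was not called for Dkk2 without Unop 1 (-1.18, adjusted p = 0.0766). The remaining antagonists were not called in any of the 3 comparisons. Sfrp4 ranged from 6326 to 17469 over the 8 libraries, Sfrp1 from 1837 to 3996, Sfrp2 from 1345 to 3120 and Dkk4 from 376 to 463. Leaving out Unop 1, the nerve with the higher Sfrp4 count, gave calls of Sfrp4 over Unop of 1.18 (adjusted p = 0.00721) in PEG and 1.30 (adjusted p = 0.00396) in NC, the replicate block gave one of 0.63 (adjusted p = 0.045) in NC, and leaving out NC 1 gave a call of Sfrp1 of -0.75 (adjusted p = 0.0245) in PEG against NC.

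Ctnnb1, which encodes beta-catenin, a partner of cadherins at cell junctions as well as the carrier of the Wnt signal, was counted at 17548, 19239 and 17849.7 in PEG, 12091, 11166 and 11557 in NC and 13335 and 13758 in Unop. PEG-fused PNAs stood above both other groups, 1.57-fold over NC (0.65 ± 0.083, adjusted p = 0.00146) and 1.34-fold over Unop (0.43 ± 0.093, adjusted p = 0.00449). NC libraries were all below the Unop nerves (-0.22 ± 0.093, adjusted p = 0.0629), a difference that DESeq2 called (-0.22, adjusted p = 0.0204). Axin2, a scaffold of the destruction complex and a widely used readout of beta-catenin activity, was counted at 187.2, 189.8 and 213 in PEG, 281, 270.0 and 215 in NC and 347 and 313 in Unop. The order was Unop, then NC, then PEG, with no overlap between groups. PEG was below Unop (-0.74 ± 0.17, adjusted p = 0.0051), and neither PEG against NC (-0.37 ± 0.15, adjusted p = 0.0981) nor NC against Unop (-0.37 ± 0.17, adjusted p = 0.0784) was called. Beta-catenin protein was not measured.

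Promoters were matched by symbol for 31 of the 47 genes in RefSeq (build GRCr8, 250 bases before to 50 after the start) and searched on both strands for the TCF/LEF core CTTTGAA or CTTTGAT. Axin2 and Fzd7 held it (2 of 31, 6.45%, against 8.73% of 33469 promoters), and none of the 11 matched genes that were higher in PEG than in NC did. The AP-1 motif TGANTCA was found in 1 of 31 (Wnt16, against 7.33% of all promoters) and the STAT motif TTCNNNGAA in 1 of 31 (Fzd4, against 8.87%). The promoters of Axin2 and Fzd7, both below Unop nerve in PEG-fused PNAs, are shown because they hold the matches, which are in capitals and are a description of letters only. They lie at chr10:94398535-94398834 (plus strand, matches from -232 and -132) and chr9:68425288-68425587 (plus strand, match from -1), where -1 is the base before the start.
Axin2: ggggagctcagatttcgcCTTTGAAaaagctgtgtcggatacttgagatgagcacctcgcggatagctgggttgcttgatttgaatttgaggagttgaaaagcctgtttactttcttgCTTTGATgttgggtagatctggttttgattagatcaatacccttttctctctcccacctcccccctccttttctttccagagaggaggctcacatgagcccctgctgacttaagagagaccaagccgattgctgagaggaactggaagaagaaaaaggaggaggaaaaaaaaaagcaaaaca
Fzd7: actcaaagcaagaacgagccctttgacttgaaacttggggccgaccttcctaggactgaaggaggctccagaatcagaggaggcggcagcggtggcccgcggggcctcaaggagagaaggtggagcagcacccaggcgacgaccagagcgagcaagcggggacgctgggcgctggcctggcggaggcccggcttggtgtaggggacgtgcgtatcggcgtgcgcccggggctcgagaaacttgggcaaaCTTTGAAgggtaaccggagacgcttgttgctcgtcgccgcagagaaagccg

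The remaining 6 genes were too low for the test. Fzd10 had 20 reads in NC, 1 in PEG and 1 in Unop (normalized counts of 8.94, 1.08 and 8.68 for NC 1 to NC 3). The ratio of NC to PEG was 20.8 (95% interval 3.33 to 864, for counting error only) and that of NC to Unop 11.2 (1.79 to 465). Its 2 higher libraries were the 2 with the most muscle reads. Notum, an enzyme that removes the lipid from Wnts, was at 8.59 and 7.50 in Unop and at most 3.71 in any PNA. Wnt1 was at 6.49, 3.74 and 1.88 in PEG and at most 2.50 elsewhere, and 13 reads in PEG against 3 in Unop gave a ratio of 2.33 whose interval (0.641 to 12.8) includes equality. Wnt3 stayed at 3.71 or less, and Wnt7a and Wnt8b at 1.25 or less, in every library.

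The rest of the pathway was read from 73 listed gene symbols (Ccn4 and Ccn5 being newer names of the listed Wisp1 and Wisp2). Of these, 70 were in the table, without Ccn4, Ccn5 and Znrf3, and 67 were tested. Between PEG-fused and NC PNAs, 21 were higher and 4 were lower (37.3% called, against 28.9% of all genes, median log2 fold change 0.27). The lists that follow are small, and their counts stand beside 15.0% of all tested genes that were higher and 13.9% that were lower. Against Unop nerve, 16 were higher and 24 lower in PEG (59.7%, against 57.7% of all genes), and 13 higher and 36 lower in NC (73.1%, against 64.5%). The gene pair for Wnt secretion was higher in PEG than in NC: Porcn, which attaches the lipid to Wnts, was counted at 482, 515 and 528 in PEG and 336, 329 and 335 in NC (0.61 ± 0.10, adjusted p = 0.00313). Wls, which carries Wnts to the cell surface, was counted at 4735, 6424 and 4495 in PEG and 3040.1, 2649.6 and 2959 in NC (0.84 ± 0.16, adjusted p = 0.00653). Both lay below Unop nerve in NC (-1.17 ± 0.11, adjusted p = 2.77e-05 and -1.12 ± 0.18, adjusted p = 0.000668), and Porcn also did in PEG (-0.57 ± 0.11, adjusted p = 0.00218).

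Of 15 planar cell polarity and scaffold genes, 4 were higher in PEG than in NC and none was lower, where 15.0% and 13.9% of all tested genes were. These were Nkd2, an inhibitor of Dishevelled (1.41 ± 0.13, adjusted p = 0.000595), Vangl1 (0.99 ± 0.16, adjusted p = 0.00321), Celsr2 (0.96 ± 0.18, adjusted p = 0.00701) and Prickle1 (0.92 ± 0.10, adjusted p = 0.000952), the last 3 being core polarity genes. Of 15 tested secreted or surface modulators, 8 were higher in PEG and none lower. Apcdd1, a membrane inhibitor of Wnt reception, was counted at 810.1, 892 and 963 in PEG, 522, 271 and 194 in NC and 2431 and 2201 in Unop (1.55 ± 0.31, adjusted p = 0.00763 for PEG over NC). The glypicans Gpc3 and Gpc6, cell surface proteoglycans that bind Wnts, differed by 1.13 ± 0.22 and 1.42 ± 0.22 (adjusted p = 0.00782 and 0.00258). Adgra2 and Reck, which together present Wnt7 ligands to brain endothelium, differed by 0.92 ± 0.12 and 0.80 ± 0.12 (adjusted p = 0.00137 and 0.00232). Trabd2b, a protease that inactivates Wnts (1.17 ± 0.25, adjusted p = 0.0102), Cthrc1 (1.15 ± 0.31, adjusted p = 0.0249) and Sulf2 (0.37 ± 0.11, adjusted p = 0.0428) made up the 8. The Cthrc1 call was lost without PEG 1, PEG 2, PEG 3, NC 1 or NC 2 (1.03 to 1.21, adjusted p 0.053 to 0.0782), and the Sulf2 call without PEG 1, PEG 2, PEG 3, NC 1 or NC 3 (0.31 to 0.38, adjusted p 0.0909 to 0.119). Sulf2 was also not called without a filter (adjusted p = 0.0556) or with the replicate block (0.0857). Without NC 1 and NC 3, Sulf2 was at 0.19, adjusted p = 0.412 and Cthrc1 at 1.18, adjusted p = 0.112.

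On the list of destruction complex and Dishevelled genes, with Tnks and Tnks2 among them, 2 of 12 were higher in PEG than in NC. That share is near the 15.0% of all tested genes. The 2 were Apc (0.57 ± 0.12, adjusted p = 0.012) and Tnks, whose product marks Axin for degradation (0.49 ± 0.13, adjusted p = 0.0217). Tnks was not called without PEG 1, PEG 2, PEG 3 or NC 2 (0.40 to 0.52, adjusted p 0.0528 to 0.0829), nor Apc without NC 1 and NC 3 (0.60, adjusted p = 0.0641). Of 13 TCF/LEF factors and nuclear partners, Pygo1 (0.92 ± 0.20, adjusted p = 0.0123) and the corepressor Tle2 (0.69 ± 0.16, adjusted p = 0.0141) were higher, while Tcf7, Lef1 and the corepressor Tle4 were lower. Without PEG 2 neither Pygo1 (0.80, adjusted p = 0.053) nor Tle2 (0.60, adjusted p = 0.0596) was called, and Pygo1 was not without PEG 3 (0.84, adjusted p = 0.0505). Without NC 1 and NC 3, Pygo1 was at 1.05, adjusted p = 0.0549 and Tle2 at 0.59, adjusted p = 0.122.

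Tcf7 was counted at 362, 165 and 385 in PEG, 1047, 1788 and 970.4 in NC and 122 and 164 in Unop (-2.10 ± 0.36, adjusted p = 0.00422 for PEG over NC). Lef1 was counted at 287, 251 and 353 in PEG, 582, 1038 and 413 in NC and 177 and 164 in Unop (-1.09 ± 0.30, adjusted p = 0.0296), and Tle4 differed by -0.58 ± 0.092 (adjusted p = 0.00302). Tcf7 and Lef1 are also transcription factors of T cells. For both genes NC 2 was the highest library, as it was for the sum of T cell markers (37933). NC 1 exceeded NC 3 for both genes, whereas the marker sum was lower in NC 1 (20210) than in NC 3 (25354). The part of T cells in these differences was not tested. Lef1 was not called without PEG 1 (-1.08, adjusted p = 0.0758) or PEG 2 (-0.98, adjusted p = 0.103), nor with the replicate block (-1.09, adjusted p = 0.0569).

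Among the R-spondin receptors and the ubiquitin ligases that remove Frizzleds from the cell surface, Lgr4 was higher in PEG than in NC (0.76 ± 0.13, adjusted p = 0.0044) and Rnf43 was lower, with 20.4, 3.74 and 31.9 in PEG and 75.1, 117 and 69.5 in NC (-2.52 ± 0.66, adjusted p = 0.0229). Rnf43 was not called without NC 2, its highest library (-2.29, adjusted p = 0.0621), nor without NC 1 and NC 3 (-2.98, adjusted p = 0.0799). Of 12 tested common targets of beta-catenin, 3 were higher in PEG and 3 lower, where 15.0% and 13.9% of all tested genes were. The higher ones were Ccnd1, the cell cycle gene of cyclin D1 (16778, 17065 and 18480.1 in PEG, 8689, 6630.0 and 6469.9 in NC and 5998 and 5192 in Unop, 1.28 ± 0.13, adjusted p = 0.000644), Wisp1 (1.07 ± 0.22, adjusted p = 0.00978) and Apcdd1. The lower ones were Tcf7, Lef1 and Rnf43, and the median of the 12 was -0.06. The targets Ccnd1 and Axin2 thus had opposite signs in PEG against NC, of which that of Ccnd1 was called.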

How the data were processed

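Total RNA of 8 nerves was sequenced as poly-A enriched, paired-end libraries. Alignment to Rnor 6.0 by TopHat2, counting by HTSeq and division by DESeq2 size factors were done by the authors. The deposited values are thus a normalized signal (normalized read counts) and no raw counts. The paper names a stranded library kit. Versions of these tools, the annotation release and the strand setting of the counting are not given in the sources used here. Where strand was not used in counting, reads of overlapping genes (among them Sfrp4 and Nme8, Wnt5b and Fbxl14, Wnt10b and Tuba1c) cannot be told apart. The authors' log2 fold changes and p-values were not used.

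All values (100%) were whole reads within 0.001 after division by 1 constant per library. The test covered 16478 of 22798 genes with a read, those reaching 10 normalized counts in 2 or more libraries. Because the values are normalized, limma 3.58.1 (trend, prior degrees of freedom 3.27) was fitted to log2(value + 1) in R 4.3.3, with group means over the 8 libraries and 1 contrast per pair of groups. Benjamini-Hochberg adjustment covered all tested genes. All 3 groups share 1 estimate of the spread, on which comparisons with 2 Unop nerves rest. Alternatives were edgeR 4.0.16 (quasi-likelihood, TMM) and DESeq2 1.42.0 on the recovered reads, TMM rescaling, no filter, a filter at 50 counts, a pseudocount of 8, only the groups compared, a replicate block and each library left out. Leaving out both NC 1 and NC 3 was chosen after seeing the data, as were the further genes whose values are given outside the rule that follows (Wnt10b, Lrp5 and Fzd10, for example).

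Values in every library are given for each gene called in PEG against NC, for the 3 of smallest adjusted p in each direction against Unop, and for Fzd2, Wnt11 and Wnt16. Other pathway genes are named where called in PEG against NC. The genes, pathway lists and marker lists were chosen with earlier results of these data known. A marker gene is not reported here and was left out of its list. Lists that share genes (targets and TCF/LEF factors, for example) count them in each. Intervals are exact, at 95%, and cover counting error only, since reads carry no molecular identifiers. The fit was tested on simulated counts in which 200 genes were changed by 3 on the log2 scale. In each of the 3 comparisons all 200 were recovered with the right sign, with 8 to 12 false calls. The simulation changed no low genes and gave all genes the same dispersion. It therefore does not show how well smaller changes, such as most of those called here, are found. Figures and promoter searches used Python 3.11.15, pandas 2.3.3 and matplotlib 3.10.9, with promoters of RefSeq build GRCr8.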

Additional observations from a re-analysis of the deposited data

How the results depend on the processing

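Over all tested genes, calls numbered 4763 in PEG against NC, 9513 in PEG against Unop and 10627 in NC against Unop. With 1 library left out these numbers lay between 2749 and 4975, 7927 and 9682, and 9095 and 10286. The lowest in PEG against NC came without PEG 2. The number of Wnt genes called in PEG against NC (17) lay between 12 and 19 when 1 library was left out and between 17 and 18 under the other tools, filters, scalings and fits. In PEG against Unop (25) it lay between 17 and 25 with 1 library left out and between 21 and 26 otherwise, and in NC against Unop (28) between 21 and 29 and between 24 and 29. Without NC 1 and NC 3, which leaves NC with 1 library that is assumed to vary like the other groups, the counts were 12, 26 and 26. The split of 15 higher and 2 lower in PEG against NC became 15 and 4 without NC 1 and 14 and 3 without a filter. The split of 9 higher and 16 lower in PEG against Unop became 9 and 10 without Unop 1 and 5 and 12 without Unop 2. Of the called genes, 12 of 17, 17 of 25 and 22 of 28 were called under every alternative that tested them, other than leaving out both NC 1 and NC 3, and 12, 13 and 18 were both tested and called under every one of these. None of the called Wnt genes changed its direction under these alternatives. Among differences between PEG and Unop that were not called, only those of 3 genes were followed. Fzd2 (-0.017 without Unop 2, 0.49 without Unop 1), Wnt11 (-0.084 with the replicate block, -0.17 without PEG 3, from -0.31 without Unop 2 to 0.39 without Unop 1) and Wnt16 (0.013 without PEG 1, from -0.35 without Unop 2 to 0.12 without Unop 1) changed direction. Wnt2b in PEG against NC was not called without a filter (adjusted p = 0.0507) or with only the 2 groups fitted (0.0605). Rspo2 in PEG against Unop was not called with edgeR (0.0604), without a filter (0.0549) or with a pseudocount of 8 (0.0553), and in NC against Unop neither Fzd6 (0.0573), Rspo2 (0.0664) nor Wnt5b (0.0694) was called with only the 2 groups fitted, whereas Fzd6 in PEG against Unop then was (0.0257). Of the 47 genes, 6 had too few reads to be tested at this depth. Among these, read ratios were given for Fzd10 and Wnt1 only, with intervals for counting error and not for the spread between animals.

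The replicate numbers of the groups carry no stated pairing. Deviations of same-numbered PEG and NC libraries from their group means had correlations of 0.11, 0.11 and -0.05 over 16478 genes. Those of same-numbered libraries with Unop were 0.154 and 0.136 for PEG and 0.152 and 0.157 for NC, with 2 pairs each. Since the third PEG and NC pair had no positive correlation and Unop gives only 2 pairs, the numbers were not taken to pair the animals. With the replicate block, 17, 24 and 27 Wnt genes were called in PEG against NC, PEG against Unop and NC against Unop. Under the block Wnt5a (adjusted p = 0.0655) was not called and Wnt10b (0.0453) was called in PEG against NC, and Wnt5b and Rspo2 were not called against Unop in either PNA, whereas Lrp5 in PEG (-0.41, adjusted p = 0.0294) and Sfrp4 in NC (0.63, adjusted p = 0.045) then were.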
